A study of Mus musculus with 6 samples.

Results

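A set of 34 genes of fatty acid metabolism was followed in blood stem and progenitor cells of mice bred to lose Raptor on induction and in control cells. Raptor, encoded by Rptor, is the subunit that defines the kinase complex mTORC1. The genes were taken from a list of names: 20 form a synthesis arm, from citrate-derived acetyl-CoA to the first steps of glycerolipid assembly, and 14 form an oxidation arm, from the carnitine shuttle to the mitochondrial enzymes and their PPAR regulators. All 34 were measured, out of 18193 genes on the arrays. Each gene was read by the probe set with the highest mean over the 6 arrays among those that name that gene alone, and its level is the log2 of the deposited signal.

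Cells make fatty acids from acetyl-CoA in the cytosol, where malonyl-CoA is the building unit, and burn them in mitochondria by beta-oxidation. Malonyl-CoA also blocks the carnitine palmitoyltransferase that admits fatty acids to mitochondria, so synthesis and oxidation are held apart. The transcription factor SREBP-1, encoded by Srebf1, drives the synthesis genes and is known to be activated downstream of mTORC1, whereas PPAR factors drive the oxidation genes. Fatty acid oxidation has been linked to the upkeep of haematopoietic stem cells.

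Bone marrow of C57BL/6 mice was sorted for cells that lacked lineage markers and Flt3 but displayed Sca1 together with cKit, the gate of stem and progenitor cells. Every mouse carried floxed alleles of exon 6 of Raptor on both chromosomes. All were given pIpC, which induces interferon, as 3 doses of 15 micrograms per g of body weight within 5 days, and cells were collected 5 weeks after the last dose. The 3 Raptor mutant arrays came from mice that also carried the MxCre transgene, a recombinase under an interferon-responsive promoter that is active in many cell types, and the 3 wild type arrays from mice without it. Neither the animals' ages nor whether an array stands for 1 mouse or a pool is given in the sources used here, so p-values measure the spread between arrays, which may be technical. The single comparison of the design sets mutant against wild type arrays and asks how loss of Raptor alters transcript levels. Only the mutant mice carried MxCre, so loss of Raptor and the transgene itself cannot be told apart here.

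Array medians over all genes lay between 7.54 and 7.57 on the log2 scale, and pairwise correlations across genes between 0.966 and 0.990. Of the markers that defined the sort, Kit stood at 10.71 to 11.17 on the log2 scale, Sca1 (Ly6a) was not analysed here, and Flt3 RNA had a signal of 9.51 to 10.79 although the gate was negative for the protein. The brightest Rptor probe set had a log2 fold change of 0.22 ± 0.29 (SE, limma adjusted p = 0.771), and its position relative to the deleted exon was not analysed, so it checks neither deletion nor labels. Y-linked genes gave a signal on some wild type arrays and on no mutant array, so this split is partly confounded with genotype. The mean log2 signal of Eif2s3y and Kdm5d read 10.68 on wild type array 2, 10.01 on wild type array 3, and 3.79 to 4.21 on wild type array 1 and the 3 mutant arrays. Xist, an X-linked gene, read 13.46, 8.05 and 5.69 on wild type arrays 1, 2 and 3, and 13.37 to 13.40 on mutant arrays. The labels do not give the sex of the animals. Among arrays without that signal the mutants are therefore set against wild type array 1 alone, and values from that smaller comparison are given beside the results they touch.

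None of the 34 genes passed the test, so the account below gives values and not calls. In limma, with Benjamini-Hochberg adjustment over all genes and a threshold of 0.05, 0 of 34 were called, where 0.11% of all genes were called (0.055% higher and 0.055% lower). The smallest adjusted p among the 34 was 0.238, that of Fads2. At an unadjusted limma p under 0.05 there were 6 of 34 (17.6%), against 10% of all genes. There were 2 without mutant array 2 and 3 without mutant array 3. The 6 were Fads2, Acsl3 and Me1, which were lower in mutant arrays (background 4.24%), and Acaca, Cpt1a and Acadvl, which were higher (background 5.81%). The 3 mutant values lay outside the range of the 3 wild type values in 9 of 34 genes, or 26.5%, against 16.1% of all genes. Of these 9, Fasn, Cpt1a, Cpt2, Acadvl and Etfdh lay above (background 8.08%) and Fads2, Acsl3, Elovl6 and Acads lay below (background 7.98%). In the main fit the shares among the 34 are above the background. They are descriptions of a chosen list, and no test was made of them. At an unadjusted p under 0.05 the share of the 34 lay below that of all genes in some alternatives. The main fit had 6 beside 1828 of all genes. Cyclic loess gave 3 beside 1804, and the mean of probe sets 3 beside 1950. There were 2 beside 1184 without mutant array 2, and 7 beside 3938 without wild type array 1. Without the dimmer 50% of genes it was 4 of 31 beside 1235. In most other alternatives the share lay above.

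**Figure D1:**
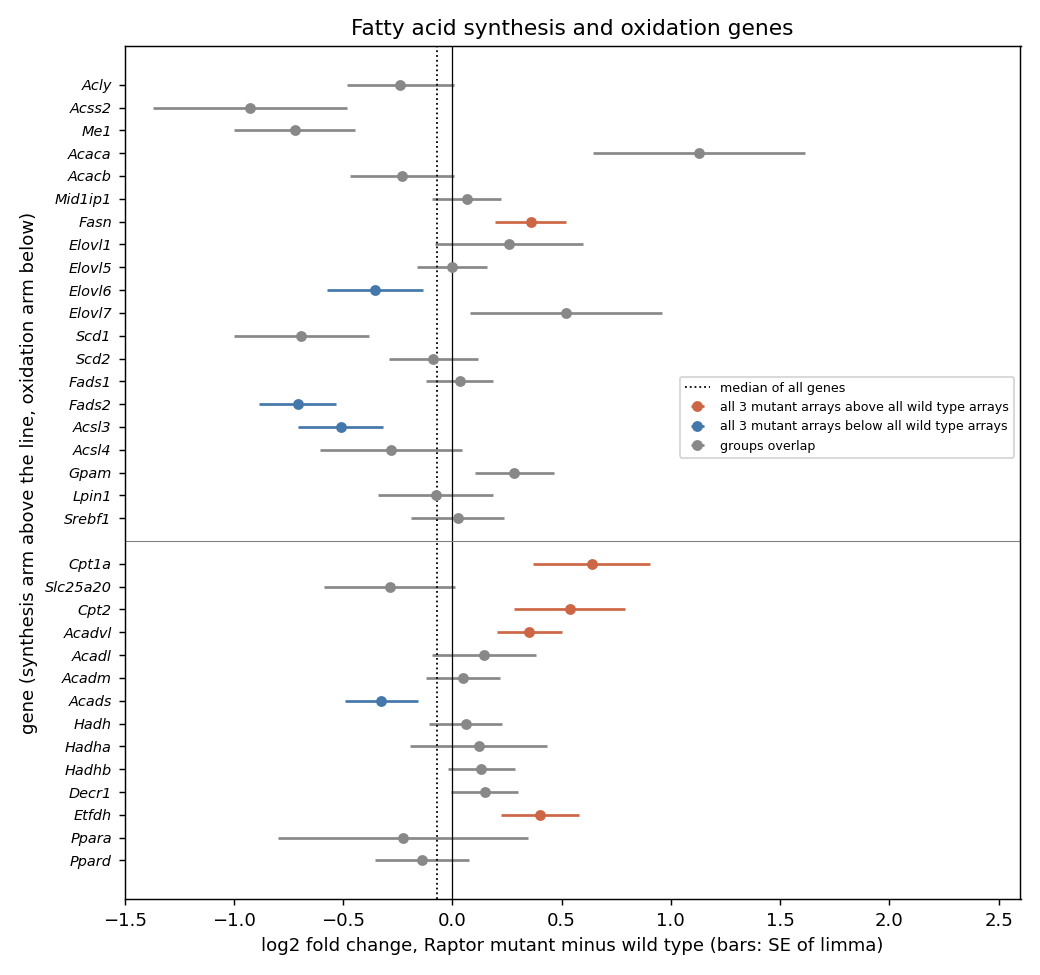
Log2 fold change of each of the 34 genes, Raptor mutant minus wild type, with the standard error of limma (x axis), for 20 synthesis genes above the line and 14 oxidation genes below it. Coloured points mark the 9 genes whose groups do not overlap, and the dotted line marks the median of all genes, -0.07.

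The 2 arms leaned apart by a small amount. The median log2 fold change was -0.08 over the 20 synthesis genes and 0.13 over the 14 oxidation genes, beside -0.07 over all 18193 genes. With all 6 arrays and no filter on dim genes, the synthesis median lay at that of all genes and the oxidation median above it. Without the dimmer 25% of genes the medians were -0.08 and 0.13, beside -0.01 over all genes kept. Without the dimmer 50% they were -0.04 and 0.13, beside 0.06. With either filter the synthesis median lay below that of all genes kept, and the oxidation median above. The oxidation median was 0.0626 without mutant array 1, 0.0742 without wild type array 3, 0.0737 after a further quantile normalization and 0.0595 after cyclic loess. Of the synthesis genes 8 had a positive and 12 a negative fold change, or 40.0% positive, as against 40.4% of all genes. Of the oxidation genes 10 were positive and 4 negative, or 71.4% positive. The 40.4% counts dim genes too, and it is not the share among brighter genes. Without the dimmer 50% the median over all genes kept was 0.06, so most of those kept were positive. Against those genes the synthesis share would lie below the background, and the oxidation share would stand out less than against 40.4%. The share of positive genes was not counted with either filter. The difference between the arms, synthesis minus oxidation, was -0.21 in log2 fold change, and no test of it was made. Read array by array, as the median over an arm of each gene's distance from its own mean, the synthesis arm read 0.23, -0.09 and 0.0006 in wild type (replicates 1, 2 and 3 in order, here and throughout) and 0.07, -0.11 and -0.16 in mutant arrays. The groups overlapped, and the wild type arrays were spread more widely than the distance between the groups. The oxidation arm stood at -0.0066, -0.02 and -0.12 on the wild type arrays and at 0.04, -0.0042 and 0.03 on the mutant arrays, without overlap but with 0.0024 between the nearest pair. With the mean of all probe sets of a gene in place of the brightest, the synthesis median was 0.016 and the oxidation median 0.12. The median over all genes was then -0.06. Without wild type arrays 2 and 3 the medians were -0.18 and 0.17, beside 0.0445 over all genes, so that the synthesis median then lay below that of all genes. It also did so without mutant array 1, at -0.22 beside -0.0555. After a further quantile normalization it was -0.13 beside -0.05, and after cyclic loess -0.13 beside -0.03. Without wild type array 1 it lay above, at -0.05 beside -0.115.

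**Figure D2:**
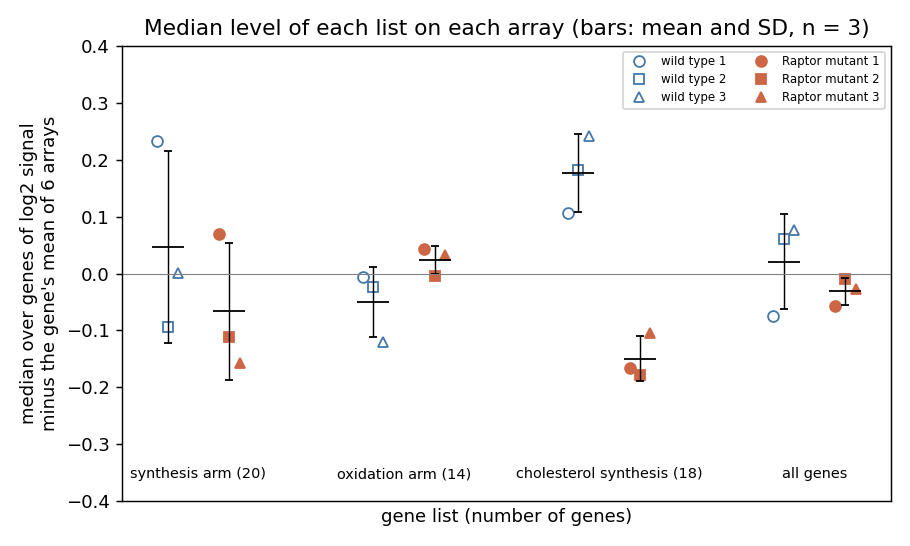
Median over the genes of a list of the log2 signal minus each gene's mean of 6 arrays (y axis), per array, for the synthesis arm, the oxidation arm, 18 cholesterol synthesis genes and all genes; black bars give the mean and SD of 3 arrays. The synthesis arm overlaps between groups, the oxidation arm is nearly level, and cholesterol synthesis genes lie between 0.11 and 0.24 on wild type and between -0.18 and -0.10 on mutant arrays.

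Promoters are shown for 4 genes, chosen after their values were seen: Fasn and Cpt1a, whose mutant values all lay above the wild type values, and Fads2 and Acads, whose mutant values all lay below, so that each arm gives 1 gene of either kind. The stretches are the 250 bases before the annotated start, from RefSeq in build GRCm38.p6, written 5′ to 3′ on the gene's strand. Fasn lies at chr11:120824548-120824797 on the minus strand, Fads2 at chr19:10101504-10101753 on the minus strand, Cpt1a at chr19:3323051-3323300 on the plus strand and Acads at chr5:115119347-115119596 on the minus strand. Capitals mark matches, on either strand, to CCAAT, the letters bound by NF-Y, a partner of SREBP, to GGGCGG, the GC box bound by Sp1 factors, and to AGGTCA, the half-site of nuclear receptors such as PPAR.
Fasn: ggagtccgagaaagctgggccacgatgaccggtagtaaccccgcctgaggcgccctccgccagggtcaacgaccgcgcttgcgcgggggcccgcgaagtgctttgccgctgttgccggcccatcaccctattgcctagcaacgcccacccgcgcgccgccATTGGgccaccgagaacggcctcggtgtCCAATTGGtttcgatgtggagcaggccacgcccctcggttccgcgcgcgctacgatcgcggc
Fads2: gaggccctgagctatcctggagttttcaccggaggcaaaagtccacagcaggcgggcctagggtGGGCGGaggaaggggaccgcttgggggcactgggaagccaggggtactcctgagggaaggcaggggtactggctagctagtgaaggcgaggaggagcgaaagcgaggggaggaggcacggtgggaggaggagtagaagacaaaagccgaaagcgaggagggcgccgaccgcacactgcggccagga
Cpt1a: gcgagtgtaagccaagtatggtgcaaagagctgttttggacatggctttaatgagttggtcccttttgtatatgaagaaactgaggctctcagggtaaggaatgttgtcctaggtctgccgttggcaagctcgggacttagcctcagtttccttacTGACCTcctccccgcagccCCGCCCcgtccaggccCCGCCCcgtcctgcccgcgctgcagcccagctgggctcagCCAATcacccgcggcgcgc
Acads: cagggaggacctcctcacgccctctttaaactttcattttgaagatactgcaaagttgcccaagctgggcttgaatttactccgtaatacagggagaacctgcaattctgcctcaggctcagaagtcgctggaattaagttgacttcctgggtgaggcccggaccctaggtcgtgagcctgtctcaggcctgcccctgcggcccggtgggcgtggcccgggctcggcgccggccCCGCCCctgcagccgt
Fasn held 3 CCAAT matches, of which a neighbouring pair on opposite strands overlap, and 0 GC boxes. Cpt1a held 1 CCAAT match, 2 GC boxes and 1 half-site, whereas Fads2 and Acads held 1 GC box each and none of the other letters. RefSeq windows were found for 30 of the 34 genes (35 windows, since some genes have several starts). CCAAT stood in 10 of 22 synthesis windows (45.5%) and 4 of 13 oxidation windows (30.8%), beside 33.8% of all 32851 windows. GGGCGG stood in 13 of 22 synthesis windows (59.1%) and 10 of 13 oxidation windows (76.9%), beside 32.7% of all. The windows of Hadha and Hadhb lie on opposite strands and overlap, and a GC box in their shared bases counts for both. AGGTCA stood in 5 of 22 (22.7%) and 3 of 13 (23.1%), beside 14% of all. The sterol regulatory element, searched as TCACNCCAC on both strands, stood in 0 of the 35 windows and in 1.05% of all windows, the E-box CACGTG in 1 of 35, that of Elovl5, and in 6.02% of all, and the paired site AGGTCANAGGTCA, which contains the half-site, in 0 of 35 and 0.0335% of all. A match describes letters in this window and nothing about binding.

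The enzymes that supply acetyl-CoA and NADPH had negative fold changes. Acss2, which makes acetyl-CoA from acetate, had log2 signals of 10.11, 9.11 and 10.05 in wild type and of 9.33, 7.86 and 9.31 in mutant arrays. Wild type array 2 lay below mutant arrays 1 and 3, so the groups overlapped, and mutant array 2 was the lowest of all. The fold change was -0.92 ± 0.44 on the log2 scale (SE, limma adjusted p = 0.541), -0.44 without mutant array 2 and -1.28 without wild type arrays 2 and 3. Me1, the malic enzyme that yields NADPH, stood at 5.92, 6.63 and 5.74 in wild type and at 5.09, 5.74 and 5.29 in mutant arrays. Its groups touched at wild type array 3 and mutant array 2, with a fold change of -0.72 ± 0.28 (SE, limma adjusted p = 0.458, unadjusted p = 0.0321). It is a dim gene at percentile 26.2 of mean signal over all genes, and its other probe set gave -0.06. The fold change of Me1 was -0.46 without wild type array 2 and -0.55 without wild type arrays 2 and 3. Acly, which cleaves citrate to acetyl-CoA, had a fold change of -0.24 ± 0.24 (SE), with values of 10.89 to 11.68 in wild type and 11.02 to 11.39 in mutant arrays. It was -0.09 without wild type array 1, -0.49 without wild type array 2 and -0.53 without wild type arrays 2 and 3. Over the 6 probe sets of Acly the fold change ran from -0.24 to 0.32.

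At the malonyl-CoA step the readings depended on the array and on the probe set. Acaca encodes acetyl-CoA carboxylase 1, which makes malonyl-CoA for synthesis. It read 10.03, 7.89 and 8.67 in wild type and 9.79, 10.31 and 9.89 on mutant arrays. Wild type array 1 lay within the mutant values, and wild type arrays 2 and 3, which carry Y-linked signal, lay below all of them. The log2 fold change was 1.13 ± 0.49 (SE, limma adjusted p = 0.496, unadjusted p = 0.0498), but -0.04 without wild type arrays 2 and 3, 1.71 without wild type array 1 and 0.64 without wild type array 2. The second Acaca probe set had values of 8.46 to 9.26 in wild type and 8.61 to 9.11 in mutant arrays, and a fold change of 0.07. Acacb, the carboxylase at the mitochondrial surface whose product restrains carnitine palmitoyltransferase, had a fold change of -0.23 ± 0.24 (SE), with values of 7.23 to 8.06 in wild type and 7.33 to 7.69 in mutant arrays, and one of -0.46 without wild type array 1, -0.05 without wild type array 3 and 0.24 without wild type arrays 2 and 3. For Mid1ip1, a protein that promotes polymers of the carboxylase, the values of 9.34 to 9.60 in wild type overlapped those in mutant arrays, 9.40 to 9.63, with a fold change of 0.07 ± 0.16 (SE).

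Fasn, the synthase that builds palmitate, stood at 9.01, 8.68 and 8.80 on wild type and at 9.14, 9.33 and 9.09 on mutant arrays. All mutant values lay above all wild type values, with wild type array 1 the nearest. The log2 fold change was 0.36 ± 0.16 (SE), or 1.28-fold, with a 95% confidence interval of -0.02 to 0.74 and a limma adjusted p of 0.524. It was 0.18 without wild type arrays 2 and 3. Fasn is read by 1 probe set, so no second reading was at hand.

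The elongases, which add carbons to finished fatty acids, did not move as a block. Elovl6, which extends palmitate, stood at 9.51, 10.25 and 9.61 on wild type and at 9.36, 9.45 and 9.49 on mutant arrays. The mutant arrays lay below the wild type arrays by 0.02 at the nearest pair, and wild type array 2 stood apart at the top. Its log2 fold change was -0.35 ± 0.22 (SE, limma adjusted p = 0.617), -0.13 without wild type array 2 and -0.08 without wild type arrays 2 and 3. The other Elovl6 probe sets gave -0.23 and 0.29. Elovl1, which makes very long chains, had a fold change of 0.26 ± 0.34 (SE) over wild type values of 9.60 to 10.84 and mutant values of 10.07 to 10.85. A dimmer Elovl1 probe set had all mutant values above the wild type values, with a fold change of 0.85 ± 0.26 (SE, limma adjusted p = 0.397 over all probe sets). Elovl7 had a fold change of 0.52 ± 0.44 (SE), -0.05 without wild type array 2, which at 7.90 lay far below the others at 9.33 to 9.68. The fold change of Elovl5, an elongase of polyunsaturated chains, was -0.0012 ± 0.16 (SE), with a 95% confidence interval of -0.38 to 0.37.

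Among desaturases, which put double bonds into fatty acids, Fads2 had the smallest p of the 34 genes. Fads2, the delta-6 desaturase that opens the path to polyunsaturated chains, stood at 9.16, 9.26 and 8.88 on wild type and at 8.53, 8.20 and 8.45 on mutant arrays. All mutant values were lower than all wild type values, and wild type array 1 was like arrays 2 and 3. The log2 fold change was -0.71 ± 0.18 (SE), with wild type 1.63-fold above mutant, a 95% confidence interval of -1.12 to -0.30 and an adjusted p of 0.238 in limma (unadjusted p = 0.00423). It ran from -0.82 to -0.61 when each array was left out in turn, and was -0.77 without wild type arrays 2 and 3. The 2 other Fads2 probe sets had fold changes of -0.76 and -0.35, with overlapping groups. Fads1, the delta-5 desaturase of the same path, read 11.76 to 11.90 in wild type and 11.68 to 11.93 in mutant arrays, with a fold change of 0.03 ± 0.15 (SE).

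Scd1 and Scd2 are stearoyl-CoA desaturases, which make oleate and palmitoleate. Scd2 read 11.46 to 11.76 in wild type and 11.30 to 11.88 in mutant arrays, with a log2 fold change of -0.09 ± 0.20 (SE). Scd1 was dim, at percentile 14.7 of mean signal over all genes, and stood at 5.92, 5.17 and 4.75 on wild type and at 4.89, 4.31 and 4.56 on mutant arrays. Its groups overlapped between wild type array 3 and mutant array 1, and the fold change was -0.69 ± 0.31 (SE, limma adjusted p = 0.514). It was -0.37 without wild type array 1, -0.96 without wild type array 3 and -1.33 without wild type arrays 2 and 3. Both Scd1 probe sets lay below the lower quartile of all probe sets, and the other gave 0.0002.

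Acsl3, which couples long fatty acids to coenzyme A and acts in lipid droplet formation, stood at 10.45, 10.54 and 10.00 on wild type and at 9.97, 9.67 and 9.82 on mutant arrays. The mutant arrays were all lower, with 0.03 between wild type array 3 and mutant array 1. The log2 fold change was -0.51 ± 0.19 (SE, limma adjusted p = 0.456, unadjusted p = 0.0311), and the other 2 probe sets gave -0.50 and -0.53. It was -0.63 without wild type arrays 2 and 3. Acsl4, an X-linked ligase that prefers arachidonate, had values of 8.28 to 9.59 in wild type and 8.55 to 8.98 in mutant arrays, a fold change of -0.28 ± 0.32 (SE), and probe sets of either sign, from -0.55 to 0.21.

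For the glycerolipid enzymes the fold changes were small at the brightest probe sets. Gpam, the mitochondrial acyltransferase that starts triglyceride synthesis, had a log2 fold change of 0.28 ± 0.18 (SE, limma adjusted p = 0.622), which was 0.15 without wild type array 2, and its second, dimmer probe set one of 1.03 ± 0.38 (SE, adjusted p = 0.485 in limma over all probe sets). Lpin1, a phosphatidate phosphatase and a known substrate of mTORC1, had one of -0.08 ± 0.26 (SE). Srebf1 stood at 8.75, 8.24 and 8.20 on wild type and at 8.28, 8.28 and 8.70 on mutant arrays. Its groups overlapped fully, with a fold change of 0.0245 ± 0.21 (SE), a 95% confidence interval of -0.47 to 0.52 and a limma adjusted p of 0.971. Against wild type array 1 alone the Srebf1 fold change was -0.33. The single Srebf1 probe set does not separate the isoforms of the gene here, and SREBP-1 activity, which is set by cleavage of the protein, was not measured.

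**Figure D3:**
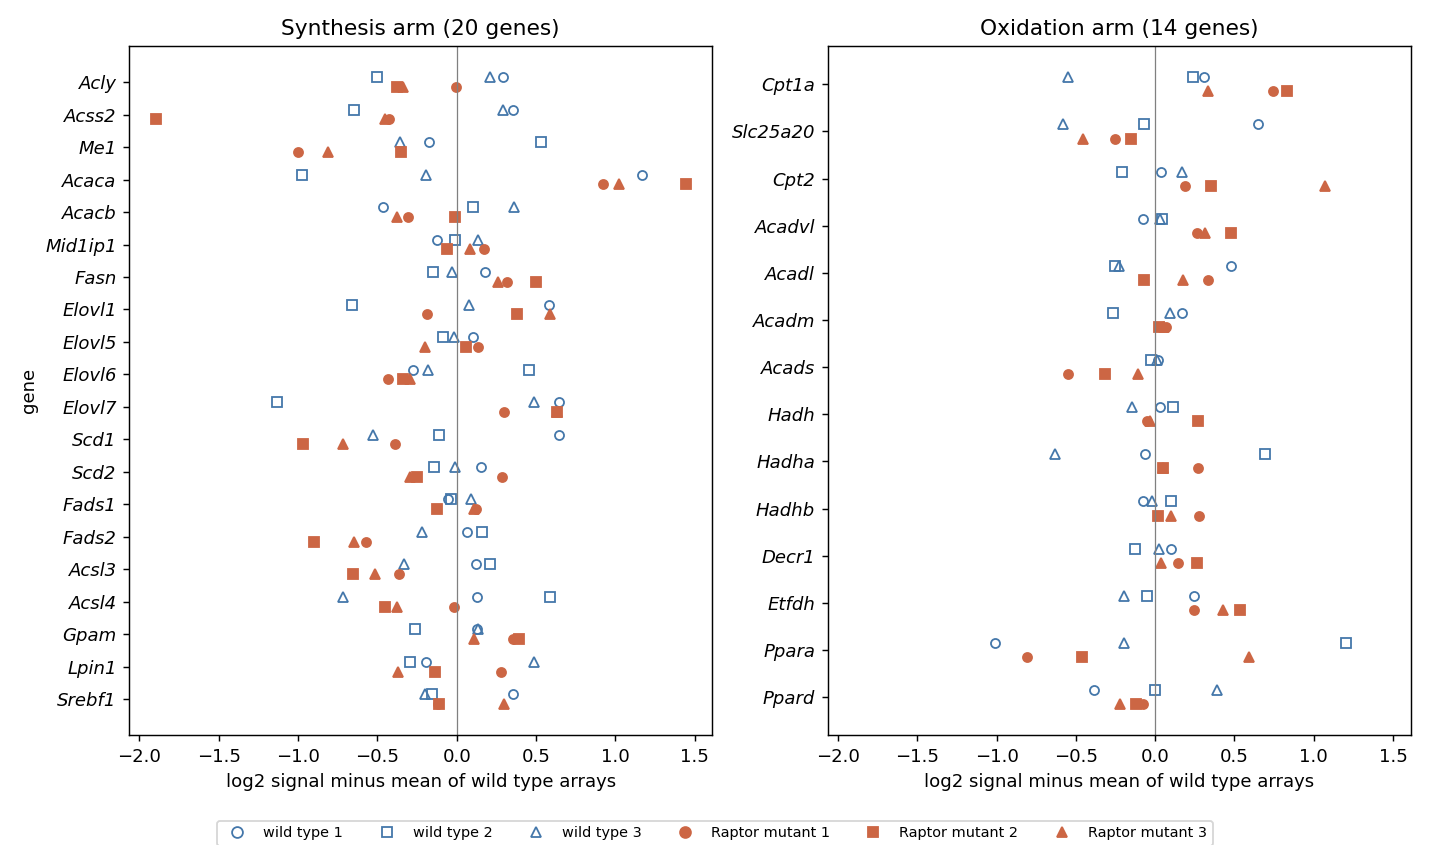
Log2 signal of each gene on each array minus the gene's mean of the 3 wild type arrays (x axis), with open symbols for wild type and filled symbols for mutant arrays; shapes mark replicate numbers. Fads2 has all mutant points to the left of the wild type points and Cpt1a all to the right, while in Acaca wild type array 1 lies among the mutant points.

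In the oxidation arm, 2 of the 3 carnitine shuttle genes had all mutant values above the wild type values at the probe set used, as had 8.08% of all genes. Cpt1a, the gated entry enzyme of mitochondrial oxidation, stood at 10.72, 10.65 and 9.86 on wild type and at 11.16, 11.25 and 10.75 on mutant arrays. The groups were 0.03 apart at the nearest pair, and wild type array 3 was the lowest. The log2 fold change was 0.64 ± 0.27 (SE), or 1.56-fold, with a limma adjusted p of 0.486 (unadjusted p = 0.0447). It was 0.36 without wild type array 3 and 0.33 without wild type arrays 2 and 3, and the other 2 probe sets gave 0.28 and 0.13. Cpt2, which releases acyl-CoA inside mitochondria, stood at 9.12, 8.87 and 9.25 on wild type and at 9.27, 9.43 and 10.15 on mutant arrays. Mutant array 3 was well above the rest, and the gap between groups was 0.02. The fold change was 0.54 ± 0.25 (SE, limma adjusted p = 0.536), 0.27 without mutant array 3 and 0.50 without wild type arrays 2 and 3. The other Cpt2 probe set, below the lower quartile of all probe sets, gave 0.01. Slc25a20, the carrier that moves acylcarnitine across the inner membrane, had values of 10.06 to 11.28 in wild type and 10.18 to 10.48 in mutant arrays, a fold change of -0.29 ± 0.30 (SE), and a second probe set at 0.25. Its fold change was -0.93 without wild type arrays 2 and 3.

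The acyl-CoA dehydrogenases, which start each round of oxidation and differ in chain length, split by gene. Acadvl, for very long chains, stood at 11.02, 11.14 and 11.13 on wild type and at 11.36, 11.57 and 11.41 on mutant arrays. All mutant values were higher, by 0.22 at the nearest pair. The log2 fold change was 0.35 ± 0.15 (SE), or 1.28-fold, with a limma adjusted p of 0.493 (unadjusted p = 0.0469). It lay between 0.29 and 0.40 when each array was left out in turn and was 0.43 without wild type arrays 2 and 3. Acads, for short chains, went the other way and stood at 9.31, 9.27 and 9.31 on wild type and at 8.74, 8.98 and 9.19 on mutant arrays. All mutant values were lower, and the wild type values were close to one another. The fold change was -0.32 ± 0.17 (SE, limma adjusted p = 0.561), -0.21 without mutant array 1 and -0.34 without wild type arrays 2 and 3. Acadl and Acadm, for long and medium chains, had fold changes of 0.15 ± 0.24 and 0.05 ± 0.17 (SE), with overlapping groups, and -0.33 and -0.12 without wild type arrays 2 and 3.

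Of the later and auxiliary enzymes, Etfdh alone had groups that did not overlap at the probe set used. Hadha and Hadhb, the subunits of the mitochondrial trifunctional protein, had log2 fold changes of 0.12 ± 0.31 and 0.13 ± 0.15 (SE). The error of Hadha came with wild type values of 10.25 to 11.58, against 10.93 to 11.15 in mutant arrays, and its fold change was 0.47 without wild type array 2 and -0.20 without wild type array 3. For Hadh, the dehydrogenase of shorter chains, the fold change was 0.06 ± 0.17 (SE), with a 95% confidence interval of -0.33 to 0.45. Decr1, a reductase needed for unsaturated chains, had one of 0.15 ± 0.15 (SE), and a dimmer probe set of it one of 0.77 ± 0.35 (SE). Etfdh, which passes electrons from the dehydrogenases to ubiquinone, stood at 10.67, 10.38 and 10.23 on wild type and at 10.67, 10.96 and 10.86 on mutant arrays. Its mutant values lay above the wild type values by 0.0012 at the nearest pair, wild type array 1 and mutant array 1. The fold change was 0.40 ± 0.18 (SE, limma adjusted p = 0.508), 0.16 without wild type arrays 2 and 3, and -0.18 at a second probe set below the lower quartile.

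The PPAR factors showed no separation. Ppara, the factor best known for oxidation genes in liver, stood at 5.29, 7.498 and 6.09 on wild type and at 5.49, 5.83 and 6.89 on mutant arrays. Both groups spanned more than 1 log2 unit, with a fold change of -0.22 ± 0.57 (SE, limma adjusted p = 0.884). Against wild type array 1 alone it was 0.78. Ppard, the PPAR form known from stem cell work, read 7.49 to 8.26 in wild type and 7.65 to 7.80 in mutant arrays, with a fold change of -0.14 ± 0.22 (SE).

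The 34 genes were read by 81 probe sets, of which 0 were called in limma over all probe sets. A total of 7 genes had 1 probe set and 27 had several. In 18 of those 27 all probe sets had fold changes of 1 sign or 0, and in 9 they had both signs (Acly, Elovl6, Elovl7, Scd1, Scd2, Acsl4, Lpin1, Slc25a20 and Etfdh). Fads2, Acsl3, Cpt1a and Acss2, each with 3 probe sets, were among those of 1 sign. Probe sets of a gene share the same RNA and are not replicates.

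**Figure D4:**
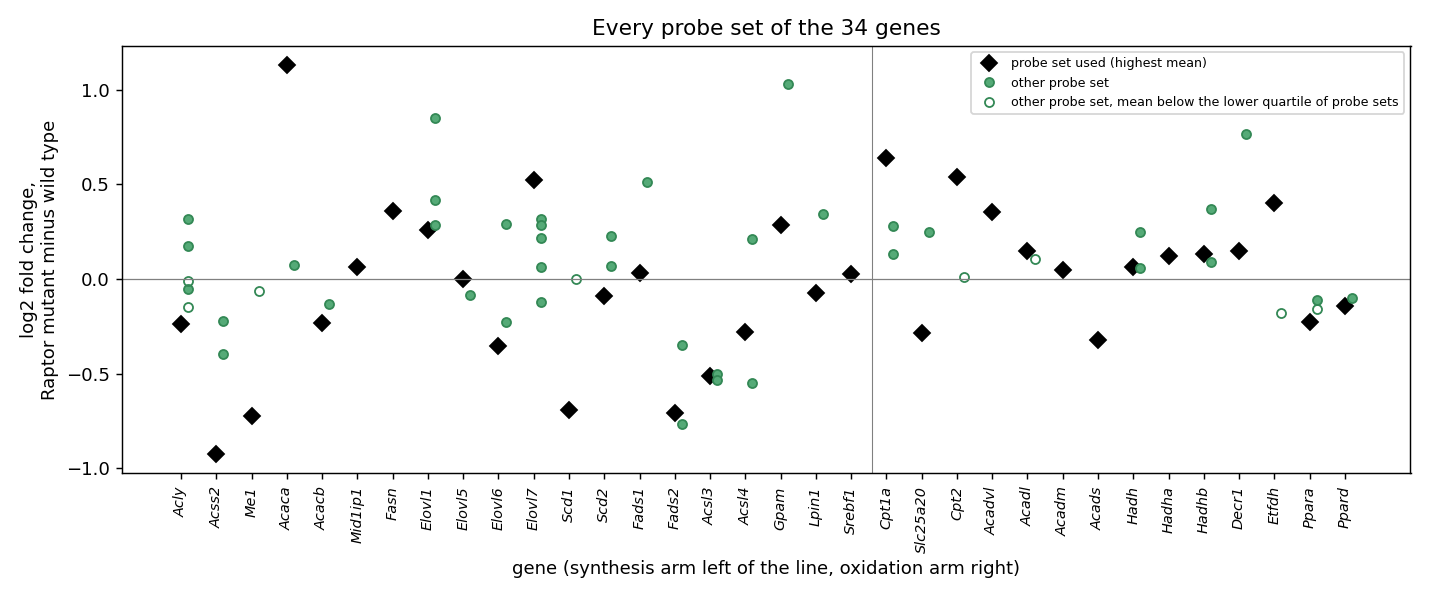
Log2 fold change, Raptor mutant minus wild type, of all 81 probe sets of the 34 genes (y axis); diamonds mark the probe set used and open circles other probe sets below the lower quartile of mean signal. All 3 probe sets of Fads2 and of Acsl3 lie below 0 and all 3 of Cpt1a above 0, whereas the Acaca probe sets stand at 1.13 and 0.07.

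Wild type arrays differed more among themselves than mutant arrays did. The median SD over the 34 genes was 0.35 in wild type and 0.19 in mutant arrays, and 25 of the 34 had the larger SD in wild type. Over all genes the medians were 0.29 and 0.16. The synthesis arm had a median wild type SD of 0.41 and the oxidation arm one of 0.23. Wild type array 2 held the lowest value of the 6 arrays in 10 of the 34 genes, 6 of them in the synthesis arm, where 16.5% of all genes had their lowest value there, and the highest in 7, where 26% of all genes had theirs. Wild type array 1 held the highest value in 9 of the 34, 5 in the synthesis and 4 in the oxidation arm, against 10.7% of all genes. In the synthesis arm wild type array 2 was the lowest in Acaca, Fasn, Elovl1, Elovl7, Gpam and Acly, and the highest in Fads2, Acsl3, Elovl6, Me1 and Acsl4.

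**Figure D5:**
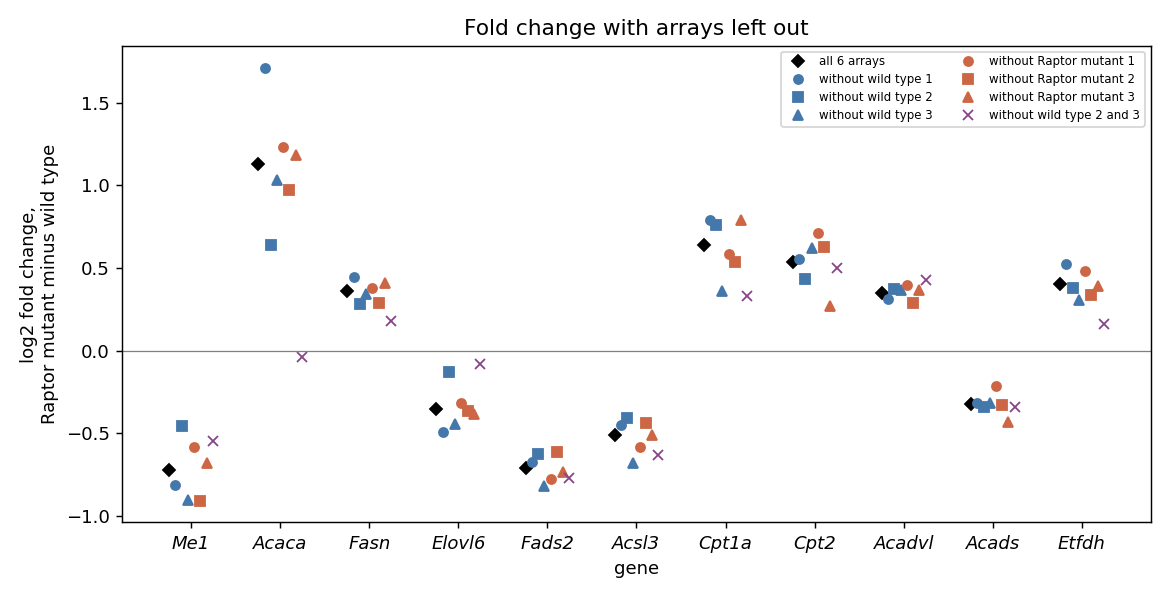
Log2 fold change, Raptor mutant minus wild type (y axis), of the 11 genes whose groups do not overlap or whose unadjusted p is under 0.05, with all 6 arrays and with arrays left out. Fads2 stays between -0.82 and -0.61, and Acaca runs from -0.04 to 1.71.

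Markers of stem cells and of mature cells differed between the groups across the same arrays. Over all genes 8.08% had all mutant values above the wild type range and 7.98% below it. Of 8 stem and progenitor markers 1 lay above and 2 below the wild type range, with summed linear signals of 13793 to 17383 in wild type and 14157 to 15217 in mutant arrays. Tek, a receptor of stem cells, fell, with 9.93 to 10.30 in wild type and 8.57 to 8.74 in mutant arrays and a log2 fold change of -1.48 ± 0.17 (SE, limma adjusted p = 0.0299). Procr, the stem cell marker EPCR, read 10.48 to 10.85 in wild type and 9.72 to 10.02 in mutant arrays, and Cd48, a marker of more mature progenitors, 11.002 to 11.24 and 11.67 to 11.95, with adjusted p of 0.157 and 0.218 in limma. Kit, Cd34, Flt3, Slamf1 and Ptprc of that list overlapped between groups. Of 6 mature lineage markers, with Ptprc again among them, 1 lay below, namely Itgam. Their sums were 3311 to 4198 in wild type and 2889 to 3983 in mutant arrays. Of 9 neutrophil markers 7 had all mutant values below the wild type values, with a summed linear signal of 18256 to 27054 in wild type and 1945 to 5664 in mutant arrays. Of 13 macrophage and dendritic cell markers 7 lay above, with sums of 3045 to 3966 and 6075 to 12913, although Adgre1, a macrophage surface marker, read 4.26 to 5.11 on all arrays, near background. Of 9 mast cell and basophil markers 4 lay above, with sums of 6336 to 7775 and 9190 to 12904. Of 6 megakaryocyte markers 1 lay above and 3 below, with sums of 6618 to 7086 and 5207 to 6393, of 7 erythroid markers 1 lay below, with sums of 3330 to 6490 and 4685 to 8486, and of 7 B and T cell markers 0 lay outside, with sums of 583 to 681 and 423 to 523. Of 8 adipocyte and stromal markers 0 had all mutant values outside the wild type range, but their sums were 924 to 1393 in wild type and 876 to 3013 in mutant arrays. Mutant array 1 stood apart, with Col1a1, a collagen of stromal cells, at 9.72 against 6.32 to 6.70 in wild type, and Fabp4, a fatty acid carrier of adipocytes, at 7.61 against 6.02 to 6.67. Adipoq, an adipocyte hormone, read 4.01 to 4.35 on all arrays, near background. No marker signal is exactly 0 on such arrays. The part of these cells in the values of the fatty acid genes was not tested, and in bulk RNA fewer cells of a type and less RNA per cell cannot be told apart.

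Other genes of the same pathways were taken from fixed lists, and 0 of them were called in limma, where 0.11% of all genes were called. Of 32 other synthesis and glycerolipid genes 4 were higher and 2 lower at an unadjusted p under 0.05, with a median of 0.08. That is 18.8% of them, against 10% of all genes. Hacd4, a dehydratase of chain elongation, stood at 9.29, 9.45 and 8.91 on wild type and at 8.30, 7.997 and 8.36 on mutant arrays, with a log2 fold change of -0.995 ± 0.20 (SE, limma adjusted p = 0.157). Fads3, a neighbour of Fads1 and Fads2 in the desaturase gene cluster, stood at 9.22, 9.44 and 8.92 on wild type and at 7.43, 7.98 and 8.66 on mutant arrays. In both genes all mutant values lay below the wild type values, and the fold change of Fads3 was -1.17 ± 0.31 (SE, limma adjusted p = 0.267). Hsd17b12, a reductase of chain elongation, and Lpin2, a relative of Lpin1, had fold changes of 0.61 ± 0.19 and 0.59 ± 0.22 (SE).

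Of 29 other oxidation genes 3 were higher and 0 lower at an unadjusted p under 0.05, with a median of 0.09. That is 10.3% of them, near the 10% of all genes. Acaa2, the thiolase that ends each mitochondrial round, stood at 10.44, 10.42 and 10.47 on wild type and at 10.98, 10.91 and 10.88 on mutant arrays. Its groups were far apart for their narrow spread, with a log2 fold change of 0.48 ± 0.14 (SE, limma adjusted p = 0.318). Acad10, Acad9 and Acad11, members of the acyl-CoA dehydrogenase family, had fold changes of 0.62, 0.62 and 0.51. Of 26 regulators 1 was higher and 2 lower at that level, or 11.5%, against 10% of all genes. Ppargc1b, a coactivator of oxidation genes, stood at 8.51, 7.57 and 7.47 on wild type and at 9.20, 8.999 and 9.31 on mutant arrays, with a fold change of 1.32 ± 0.28 (SE, limma adjusted p = 0.174). Its mutant values were all higher, with wild type array 1 the nearest. Prkag1 and Prkaa2, subunits of the energy sensor AMPK, had fold changes of -0.39 ± 0.15 and -0.67 ± 0.33 (SE), and Insig1, which holds SREBP in the endoplasmic reticulum, one of -1.08 ± 0.21 (SE, limma adjusted p = 0.147). Of 26 PPAR target, uptake and lipid droplet genes 0 were under 0.05 unadjusted, against 10% of all genes, with a median of 0.04. The smallest p was that of Fabp5, a fatty acid carrier, at a fold change of 0.34 ± 0.18 (SE).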

How the data were processed

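RNA of sorted cells was measured on 6 single-colour 3′ arrays, 3 per group. For each array the authors deposited the intensity of every probe set, produced by RMA per the submitters' processing notes. No version or settings of RMA are given in the sources used here. These deposited values were linear, from 7.6 to 33795, and were turned to log2. The number of arrays limits the precision. Of 45101 probe sets, 34945 named a single gene in the annotation table, and 64 controls, 9160 naming no gene and 932 naming several were left out. The probe set with the highest mean was used for each of 18193 genes, with no filter on dim genes. Mutant minus wild type was fitted in limma 3.58.1 under R 4.3.3, using lmFit and eBayes with two-sided p adjusted by Benjamini-Hochberg over all genes, and the code was tested on simulated data. Confidence intervals are at 95%. The members and lists were chosen with earlier results of these data known. Every array value is printed for members whose groups do not overlap or whose unadjusted p is under 0.05, and for Srebf1, Fasn, Acaca, Cpt1a and Ppara; values of Acss2 and Scd1 and of some other list genes were added after they were seen. From each other list up to 4 genes with the smallest p are named. Alternatives tried were a block for the replicate number, further normalizations, other uses of probe sets, filters of 25% and 50% of dim genes, other variance models, Y-linked signal as a covariate, and leaving out arrays.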

Additional observations from a re-analysis of the deposited data

How the results depend on the processing

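In none of the 18 alternatives was any measured gene of the 34 called by limma; the filters on dim genes left 33 and 31 of them, without Scd1, and without Scd1, Me1 and Ppara. In the alternatives that measured them, 15 genes kept the sign of their fold change, namely Fads2, Acsl3, Me1, Acss2, Elovl6, Scd1, Fasn, Gpam, Cpt1a, Cpt2, Acadvl, Acads, Etfdh, Hadhb and Decr1. The number at an unadjusted p under 0.05, 6 as reported, was 3 with cyclic loess normalization and with the mean of probe sets, and 2 to 7 when each array was left out (2 without mutant array 2, 3 without mutant array 3). All genes called, 20 as reported, numbered 12 with every probe set, 40 with trend and robust fitting, 8 with array weights, and 5 to 31 when each array was left out (31 without wild type array 1, 5 without wild type array 3, 10 without mutant array 1 and 9 without mutant array 3). They were 0 with Y-linked signal as a covariate (1149 genes at an unadjusted p under 0.05) and 0 without the arrays carrying it (1729). Both of these set the mutants against wild type array 1. With the replicate number as a block 10 genes were called, 0 of the 34 among them, and 7 of the 34 were at an unadjusted p under 0.05. The labels do not say whether equal numbers mark pairs of arrays. Deviations of same-numbered arrays correlated at 0.18, -0.03 and 0.06, and those of differently numbered arrays at -0.16 to 0.09. With 3 arrays per group these values cannot decide whether the arrays are paired.

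The oxidation median, 0.13 as reported, was 0.0737 after quantile normalization again, 0.0595 with cyclic loess, 0.19 with the Y-linked covariate, and 0.0626 to 0.15 when each array was left out, with 0.0742 without wild type array 3. The synthesis minus oxidation difference was -0.40 with that covariate, -0.36 without the arrays carrying the signal, and -0.29 to -0.14 when each array was left out. The synthesis median ran from -0.22 to -0.04 in the latter.

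Signs turned in genes that were called nowhere; the cause was not tested. With quantile normalization again Srebf1 was at -0.044 and Acadm at -0.0039. Cyclic loess gave -0.018 for Mid1ip1, -0.015 for Fads1, -0.0376 for Srebf1 and -0.0265 for Acadm. The mean of probe sets gave 0.0069 for Acly, 0.0706 for Scd2 and 0.13 for Lpin1. Array weights gave 0.018 for Elovl5 and -0.009 for Hadha. With the Y-linked covariate the values were 0.19 for Acacb, -0.29 for Elovl1, -0.15 for Elovl7, 0.0462 for Lpin1, -0.29 for Srebf1, -0.31 for Acadl, -0.13 for Acadm, 0.81 for Ppara and 0.20 for Ppard. Without the arrays carrying that signal they were -0.0374 for Acaca, 0.24 for Acacb, -0.32 for Elovl1, -0.13 for Elovl7, 0.12 for Lpin1, -0.33 for Srebf1, -0.33 for Acadl, -0.12 for Acadm, 0.78 for Ppara and 0.25 for Ppard. When each array was left out, ranges were -0.0705 to 0.0969 for Elovl5, -0.58 to 0.0372 for Slc25a20, -0.0685 to 0.55 for Elovl1, -0.0472 to 0.84 for Elovl7, -0.64 to 0.014 for Acsl4, -0.11 to 0.20 for Srebf1, -0.0834 to 0.13 for Acadm, -0.73 to 0.38 for Ppara, -0.25 to 0.17 for Lpin1, -0.041 to 0.12 for Hadh, -0.20 to 0.47 for Hadha, -0.33 to 0.0535 for Ppard, -0.0093 to 0.11 for Fads1, -0.27 to 0.0174 for Scd2.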

Other observations

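Cholesterol synthesis genes, which share SREBP factors with fatty acid synthesis, were set beside the synthesis arm. Of 18 measured genes 1 had a positive and 17 a negative log2 fold change, with a median of -0.29, against 8 positive and 12 negative with a median of -0.08 in the synthesis arm. None was called by limma, where 0.11% of all genes were called. At an unadjusted p under 0.05, 3 were lower (16.7%, against 4.24% of all genes). In 6 all mutant values lay below the wild type values (33.3%, against 7.98% of all genes). Msmo1, a sterol demethylation enzyme, stood at 7.89, 8.19 and 8.18 on wild type and at 7.44, 7.02 and 6.77 on mutant arrays, with a fold change of -1.01 ± 0.21 (SE, limma adjusted p = 0.16). Idi1, Sqle and Fdft1 had fold changes of -0.81, -0.66 and -0.67. The difference between the lists was not tested.

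Of 17 genes of the tricarboxylic acid cycle, which takes up the acetyl-CoA of beta-oxidation, 14 had a positive and 3 a negative log2 fold change, with a median of 0.15, close to the 0.13 of the oxidation arm. Limma called 0 of them, beside 0.11% of all genes, and 1 was under an unadjusted p of 0.05 (5.88%, against 10% of all genes). That gene was Ogdh, a subunit of the oxoglutarate dehydrogenase complex, at 9.03, 9.64 and 9.62 on wild type and 8.87, 9.02 and 8.72 on mutant arrays, with a fold change of -0.56 ± 0.21 (SE, limma adjusted p = 0.451). Idh3b, Idh3a and Cs had fold changes of 0.33, 0.24 and 0.37.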
